A study of Mus musculus with 8 samples.

Results

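The sarcomeric myosin heavy chain transcripts Myh1, Myh2, Myh3, Myh4, Myh7, Myh7b and Myh8 were followed in quadriceps femoris (QF) muscle of mice labelled as knockouts of the mitochondrial co-chaperone Grpel1 in skeletal muscle and of their controls. The 7 genes were taken by symbol from the 14012 genes of the deposited count table, and all 7 were found. Polyadenylated RNA of 8 mice was sequenced, with 1 library per mouse and 4 mice per group. The knockout group, Grpel1 skm-/-, carried floxed Grpel1 alleles and HSA-Cre-ERT2, a tamoxifen-inducible Cre driven by the human skeletal muscle α-actin promoter, so that recombination was directed to muscle fibres and not to the other cells of the muscle. These mice received intraperitoneal tamoxifen at 5 weeks of age on 5 consecutive days. The control group carried the same floxed alleles, Grpel1 flox/flox. The mice were described as male, and the age at which these 8 muscles were taken is not given in the sources used here. The study's text calls the Grpel1 flox/flox littermates it weighed untreated. Its weight curves separate floxed mice with Cre and no tamoxifen, floxed mice given tamoxifen and lacking Cre, and wild-type Cre mice given tamoxifen. Whether the 4 sequenced control mice carried Cre or received tamoxifen is not given. Loss of Grpel1 and exposure to tamoxifen and Cre therefore cannot be told apart where the controls had neither.

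Myosin heavy chains are the motor proteins of the thick filament, and a fibre's contraction speed follows the isoform it contains. Adult mouse limb muscle uses fast isoforms, IIb from Myh4, IIx from Myh1 and IIa from Myh2, and the slow or β-cardiac isoform from Myh7. Myh3 encodes the embryonic and Myh8 the neonatal isoform, which are normally replaced after birth and are expressed again in regenerating fibres, and Myh7b encodes a slow-type myosin of low abundance. The quadriceps of the mouse is a mainly fast muscle.

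The libraries held between 16017565 and 20361144 counted read pairs on genes. Levels are given as CPM, a gene's counts relative to library size, with the sizes scaled by TMM (trimmed mean of M-values), and the scaling factors ran from 0.747 to 0.844 among controls and from 1.19 to 1.33 among knockouts. Whole-gene counts of Grpel1 gave no check of the labels, since they averaged 68.4 CPM ± 3.04 (SD, n = 4) in controls and 65.3 CPM ± 6.11 (n = 4) in knockouts, and groups are named here by their labels. At an adjusted p under 0.01 of edgeR's quasi-likelihood test over all 14012 genes, 44.7% of genes were called, 23.6% higher and 21.1% lower in the knockout. With library totals alone in place of TMM, 9371 genes were called, 8498 of them higher, against 6265 and 3303 with TMM. Between the groups, 53.4% of all genes did not overlap in CPM. The p-values measure the spread between these mice. In bulk muscle, fewer cells of a type and less RNA per cell cannot be told apart.

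Of the 7 members, 4 were called, Myh1, Myh3 and Myh8 higher and Myh4 lower in the knockout, and the same 4 did not overlap between the groups, where 44.7% of all genes were called and 53.4% did not overlap. The IIb transcript fell 5.05-fold and the IIx transcript rose 2.22-fold. Both developmental transcripts rose strongly, Myh3 by 121-fold and Myh8 by 105-fold, from levels of a few CPM. Myh7 was far higher in 3 of 4 knockout libraries and at control level in the other, and Myh2 and Myh7b overlapped between the groups.

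**Figure D1:**
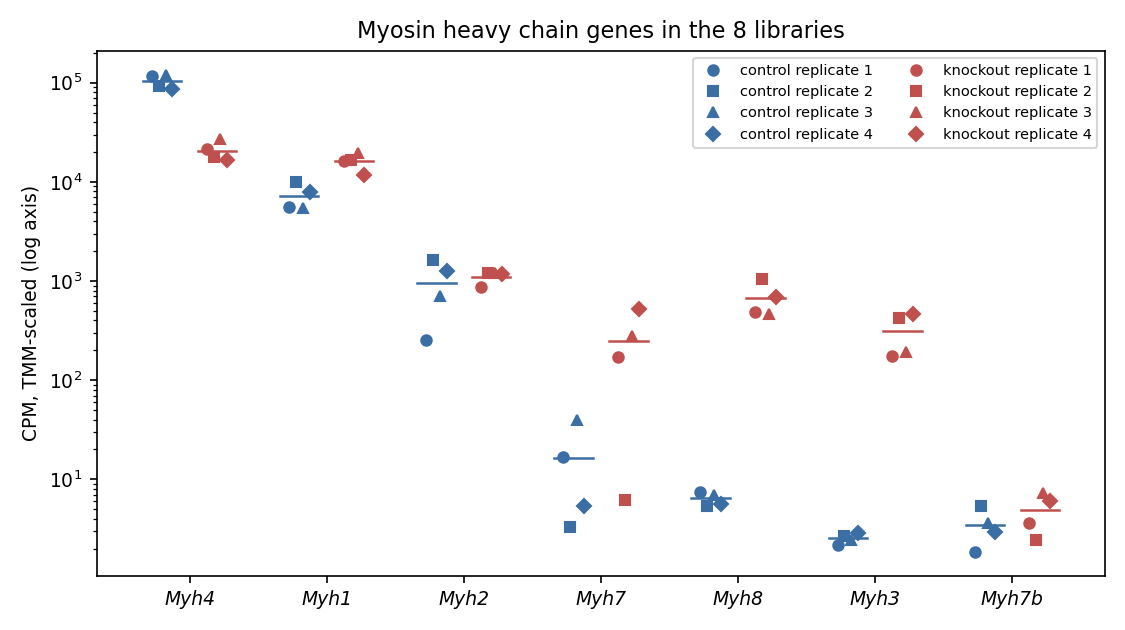
CPM of the 7 members in each library (log axis), controls in blue and knockouts in red, with symbols for the replicates and a bar at the group mean. Myh4 is lower and Myh1, Myh8 and Myh3 are higher in all 4 knockouts than in any control, while knockout replicate 2 lies among the controls for Myh7.

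Of the 7 genes, 5 form a cluster on chromosome 11, all on the plus strand in the order Myh3, Myh2, Myh1, Myh4, Myh8, over 230.335 kb in the coordinates of the deposited table (GRCm38). Myh7 lies on the minus strand of chromosome 14 and Myh7b on the plus strand of chromosome 2. The promoters of the 5 clustered genes are shown because neighbours of one sequence family moved in opposite directions. They were taken from RefSeq (GRCm38.p6) as 250 bases before to 50 bases after the annotated start, which all 7 members had, and are written 5′ to 3′ on the plus strand. The windows were chr11:67237562-67237861 for Myh4, chr11:67199852-67200151 for Myh1, chr11:67170777-67171076 for Myh2, chr11:67276874-67277173 for Myh8 and chr11:67078050-67078349 for Myh3. Capitals mark the longest run shared by Myh4, Myh1, Myh2 and Myh8, which is 14 bases long, and each TATAAAA.
Myh4: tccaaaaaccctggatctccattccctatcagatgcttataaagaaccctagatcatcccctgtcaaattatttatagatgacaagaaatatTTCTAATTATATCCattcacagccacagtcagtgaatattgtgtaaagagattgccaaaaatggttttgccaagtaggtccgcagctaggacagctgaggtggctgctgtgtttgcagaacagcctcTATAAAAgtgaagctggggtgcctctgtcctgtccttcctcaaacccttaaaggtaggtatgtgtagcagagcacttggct
Myh1: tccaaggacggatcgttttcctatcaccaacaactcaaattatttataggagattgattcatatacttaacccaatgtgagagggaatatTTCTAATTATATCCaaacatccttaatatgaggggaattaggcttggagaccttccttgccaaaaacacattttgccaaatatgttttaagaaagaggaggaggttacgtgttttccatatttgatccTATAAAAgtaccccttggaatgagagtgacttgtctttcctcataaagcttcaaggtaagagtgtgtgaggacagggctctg
Myh2: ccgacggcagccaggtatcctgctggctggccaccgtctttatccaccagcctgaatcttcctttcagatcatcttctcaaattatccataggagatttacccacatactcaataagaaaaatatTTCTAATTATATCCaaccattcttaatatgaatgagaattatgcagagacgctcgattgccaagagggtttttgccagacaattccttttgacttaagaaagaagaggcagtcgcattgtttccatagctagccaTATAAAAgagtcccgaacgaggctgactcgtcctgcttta
Myh8: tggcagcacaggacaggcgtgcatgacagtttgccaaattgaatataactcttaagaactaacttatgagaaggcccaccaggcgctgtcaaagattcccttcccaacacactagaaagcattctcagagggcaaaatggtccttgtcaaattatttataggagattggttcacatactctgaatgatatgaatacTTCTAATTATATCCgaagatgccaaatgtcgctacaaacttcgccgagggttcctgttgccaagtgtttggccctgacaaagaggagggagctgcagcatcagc
Myh3: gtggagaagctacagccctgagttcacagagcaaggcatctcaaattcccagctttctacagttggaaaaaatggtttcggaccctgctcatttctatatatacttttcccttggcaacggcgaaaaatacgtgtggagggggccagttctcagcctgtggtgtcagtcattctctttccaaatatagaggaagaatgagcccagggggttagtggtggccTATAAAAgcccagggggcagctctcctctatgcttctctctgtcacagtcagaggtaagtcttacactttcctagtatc

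The shared run TTCTAATTATATCC began at position -158 in Myh4, -160 in Myh1, -125 in Myh2 and -54 in Myh8, counted with the annotated start as 0. Of 32817 promoters of this length, only these 4 held it on either strand (0.0122%). Among the 3 adult fast genes the shared run was 20 bases long. The 4 genes with the 14-base run included the member that fell, Myh4, the members Myh1 and Myh8 that rose, and Myh2, which was not called. TATAAAA lay at -31 in Myh4, -32 in Myh1, -29 in Myh3 and 10 in Myh2, and was not found in the Myh8 window. It occurred in 5.48% of all promoters, searched on both strands. The MEF2 consensus, bound by MEF2 factors of muscle, matched at -182 in Myh4, -211 in Myh1 and -99 in Myh8 (3.19% of all promoters), and the CArG box, bound by serum response factor, matched at -104 in Myh4 (1.63%). The E-box CANNTG matched 3 times in Myh4, 2 times in Myh8, 1 time in Myh3 and 0 times in Myh1 and Myh2 (72.3% of all promoters). No match overlapped another in these windows. The matches describe the letters of these windows and do not show bound sites.

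The transcripts are closely alike, which matters because the authors left out reads that mapped to several places. Between the longest GENCODE M21 coding transcripts of the 5 clustered genes, 80.3% to 90.2% of aligned bases were identical, with Myh1 and Myh2 the closest. Of all 75-base windows, the length of a read, 16.6% in Myh1, 16.3% in Myh2, 15.3% in Myh7, 12.9% in Myh8, 9.68% in Myh4, 1.86% in Myh3 and 0% in Myh7b also occurred in a transcript of another myosin heavy chain gene. For Myh7 the partner was Myh6, the adjacent α-cardiac gene. Read pairs lying wholly in such windows could be lost from the counts, so that levels of these genes carry an uncertainty that the replicate spread does not show.

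Myh4 (Entrez 17884, chr11:67237812-67260447) encodes the fastest isoform, IIb, and was the most abundant gene of the table by CPM in both groups. The controls held 115553, 92726, 120576 and 86742 CPM and the knockouts 21214, 17664, 26927 and 16523 CPM. Every knockout library was far below every control library. The log2 fold change was -2.34 (SE 0.22, edgeR adjusted p = 1.19e-05), which was 5.05-fold lower, and the exact permutation test over the 70 assignments of 4 against 4 gave p = 0.0286, the smallest it can give.

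Myh1 (Entrez 17879, chr11:67200114-67224575) encodes IIx, the fast isoform between IIb and IIa in speed. It stood at 5615, 10007, 5435 and 7927 CPM in the controls and at 16245, 16745, 19510 and 11795 CPM in the knockouts. The lowest knockout library exceeded the highest control library by a narrow margin. The difference was 1.15 on the log2 scale (SE 0.23, edgeR adjusted p = 0.0017), and by mean CPM the gene moved from rank 25 to rank 3 among all genes.

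Myh2 (Entrez 17882, chr11:67171027-67197517) encodes IIa, the oxidative fast isoform. The controls held 252, 1617, 706 and 1260 CPM and the knockouts 866, 1194, 1196 and 1174 CPM. The groups overlapped, and the controls spread 6.42-fold from lowest to highest against 1.38-fold in the knockouts. The log2 fold change was 0.21 with a 95% interval of -0.76 to 1.18 (edgeR adjusted p = 0.70), an interval that holds differences in either direction. Without control replicate 1 the log2 fold change was -0.11.

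Myh8 (Entrez 17885, chr11:67277124-67308634), the neonatal isoform, was scarce in the controls, with 93, 83, 98 and 90 counts. The knockouts held 11595, 22930, 11379 and 17354 counts. In CPM the controls lay between 5.43 and 7.51 and the knockouts between 470 and 1050. The log2 fold change was 6.72 (SE 0.31, edgeR adjusted p = 2.2e-07).

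Myh3 (Entrez 17883, chr11:67078300-67102291), the embryonic isoform at the other end of the cluster, also rose. The controls held 27, 41, 34 and 46 counts and the knockouts 4233, 9152, 4640 and 11579 counts, or 2.18 to 2.90 CPM against 177, 419, 192 and 460 CPM. The log2 fold change was 6.92 (SE 0.40, edgeR adjusted p = 6.5e-07). By log2 fold change Myh3 ranked 27 and Myh8 ranked 30 among the 14012 genes. Within the knockouts, replicates 2 and 4 held the most of both transcripts.

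Myh7 (Entrez 140781, chr14:54970688-54994549, minus strand) encodes the slow isoform. The controls held 16.7, 3.27, 39.9 and 5.42 CPM and the knockouts 173, 6.18, 280 and 528 CPM. Of the knockouts, 3 exceeded every control, but replicate 2, with 135 counts, lay below 2 of the controls. The log2 fold change of 3.93 had a wide error (SE 1.11, 95% interval 1.45 to 6.41), and it missed the threshold (edgeR adjusted p = 0.0119, exact permutation p = 0.0857). Without knockout replicate 2 it was 4.33 (edgeR adjusted p = 0.0013), and without control replicate 3 it was 4.90 (edgeR adjusted p = 0.0092). The direction was positive in all 17 alternative analyses, of which 6 made the call, with adjusted p from 5.8e-06 to 0.034. The lowest adjusted p came from libraries scaled to the summed counts of the members, where the median log2 fold change over all genes was 1.60. Library totals alone also made the call, and there the median was 0.73. These scalings raised the values of genes in general, so their calls are no separate support for Myh7.

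Myh7b (Entrez 668940, chr2:155611243-155634307), which hosts the microRNA miR-499 in an intron, was low throughout. It lay between 1.86 and 5.43 CPM in controls and between 2.43 and 7.31 CPM in knockouts. The log2 fold change of 0.47 had a 95% interval of -0.37 to 1.32 (edgeR adjusted p = 0.30). Its last 31 bases overlap Trpc4ap on the opposite strand, and whether strand was used to count reads is not given in the sources used here. Trpc4ap fell slightly, by 0.27 on the log2 scale (SE 0.069, edgeR adjusted p = 0.0065).

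Scaling moved these values together. The median log2 fold change over all genes was 0.065 with TMM, 0.73 with library totals alone and 1.60 with libraries scaled to the summed counts of the members. In the same order, the log2 fold change was -2.34, -1.67 and -0.81 for Myh4 and 1.15, 1.80 and 2.62 for Myh1, so that its size depended on the scaling. Rescaling shifts all genes by about the same amount, so values relative to the median are bound to be nearly alike. Relative to that median, Myh4 stood at -2.40, -2.40 and -2.42, and Myh1 at 1.08, 1.07 and 1.02. Myh3 stood at 6.86, 6.88 and 6.93 and Myh8 at 6.65, 6.68 and 6.70. Myh4 stayed lower and Myh1, Myh3 and Myh8 higher under each of these scalings before the median was subtracted. Scaled to the summed members, a member's value follows its share among them, so that scaling is no separate check of direction.

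**Figure D2:**
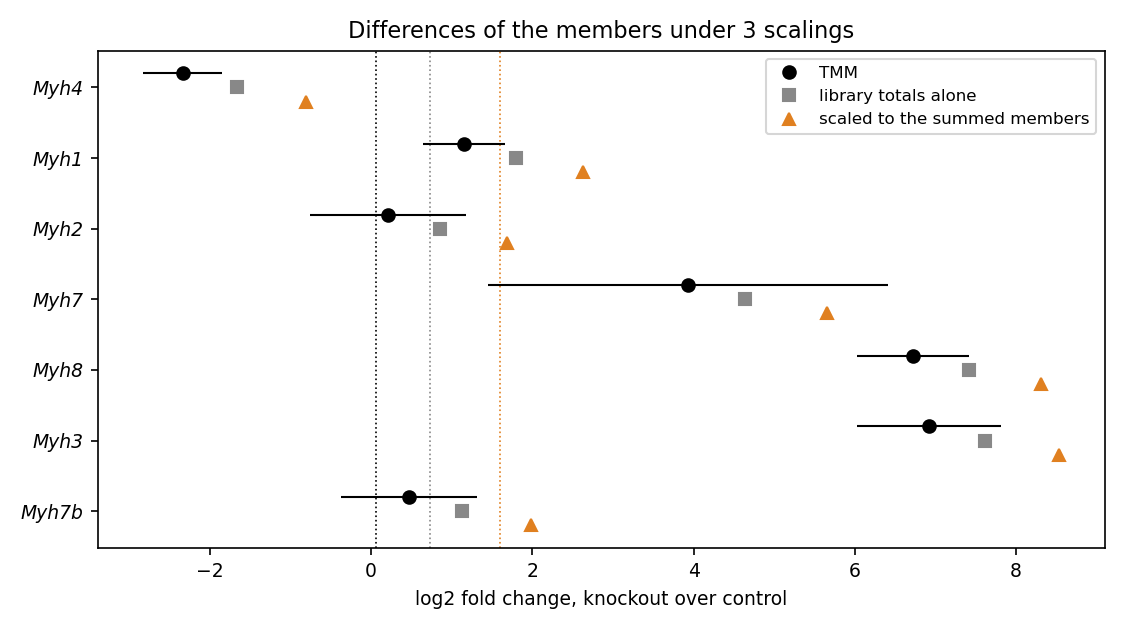
Log2 fold change, knockout over control, of each member with TMM (black, with 95% intervals), library totals alone (grey) and libraries scaled to the summed members (orange), with dotted lines at the median of all genes for each. Myh4 lies left of 0 in all 3, and Myh3 and Myh8 lie farthest to the right.

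The composition of the myosin heavy chain pool does not depend on the scaling between libraries. It was computed per library as each member's share of the members' counts per kb of exon. Myh4 made up 95.1%, 88.8%, 95.1% and 90.4% of the pool in the controls and 54.1%, 47.6%, 55.4% and 53.0% in the knockouts. Myh1 made up 4.64%, 9.62%, 4.30% and 8.29% in the controls and 41.6%, 45.3%, 40.2% and 37.9% in the knockouts. The IIx transcript was thus a minor part of the control pool and close in share to IIb in the knockouts. Myh2 averaged 0.900% ± 0.625 (SD, n = 4) in controls and 2.89% ± 0.706 (n = 4) in knockouts. The developmental transcripts Myh3 and Myh8 together made up 0.00795% ± 0.00064 of the control pool and 2.65% ± 1.33 of the knockout pool, with 1.35% to 3.92% in single knockouts. Myh7 averaged 0.0135% ± 0.0128 in controls and 0.679% ± 0.713 in knockouts, from 0.0166% in replicate 2 to 1.69% in replicate 4. Shares sum to 100% in each library, so they were not tested. Duplicate read pairs had been left out before counting. Myh4 held 1376603 to 1684796 counts in controls and 385728 to 652312 in knockouts, on 6037 bases of exon. The effect of leaving out duplicates on the level, share and fold change of Myh4 was not tested. The pool itself was smaller, since the members took 8.86% ± 0.681 of all counts in controls and 4.89% ± 0.706 in knockouts, and their summed CPM in knockouts was 0.348 of that in controls.

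**Figure D3:**
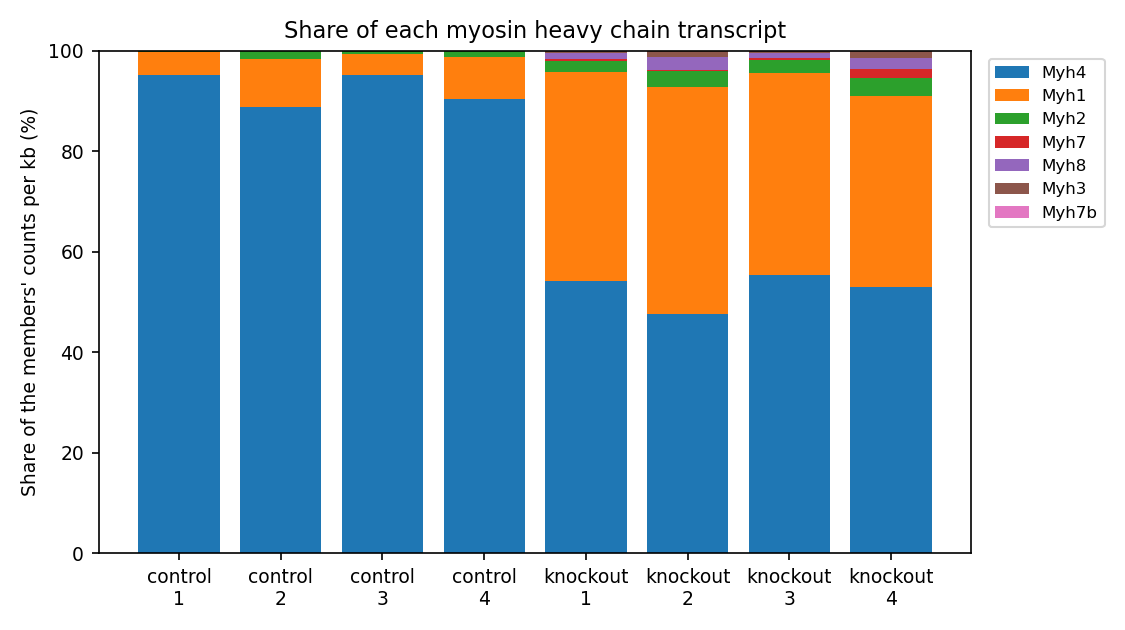
Share of each member in the members' summed counts per kb of exon (%), stacked to 100% for each library. Myh4 fills 88.8% to 95.1% of the control bars and 47.6% to 55.4% of the knockout bars, where Myh1 takes 37.9% to 45.3%.

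Ratios within a library were compared for 4 pairs of members. The ratio of Myh4 to Myh1, per kb of exon, was 20.5, 9.24, 22.1 and 10.9 in controls and 1.30, 1.05, 1.38 and 1.40 in knockouts. The groups did not overlap, and the log2 ratio differed by -3.52 (exact two-sided permutation p = 0.0286, 0.114 after adjustment over the 4 ratios). With 4 mice a group an exact permutation p cannot go below 0.0286, and adjusted over 4 ratios a lone p at that limit becomes 0.114. The ratio of Myh8 to Myh3 was 3.36, 1.97, 2.81 and 1.91 in controls and 2.67, 2.44, 2.39 and 1.46 in knockouts. Their log2 ratio differed by -0.16 (exact permutation p = 0.571), while Myh8 rose by 105-fold and Myh3 by 121-fold. In controls this ratio rested on 27, 41, 34 and 46 counts of Myh3. The differences were 0.67 for Myh1 to Myh2 (exact permutation p = 0.2, adjusted 0.267) and -2.92 for Myh2 to Myh7 (exact permutation p = 0.171, adjusted 0.267).

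By level per kb of exon (mean CPM per kb), the order in controls was Myh4 (17210), Myh1 (1204), Myh2 (158), Myh7 (2.70), Myh8 (1.04), Myh7b (0.567) and Myh3 (0.425). The first 3 were separated from each other and from the rest in every library, and the lowest 4 overlapped each with the next. In knockouts the order was Myh4 (3409), Myh1 (2671), Myh2 (182), Myh8 (109), Myh3 (52.0), Myh7 (40.7) and Myh7b (0.791). There the range of Myh4 overlapped that of Myh1, although Myh4 was above Myh1 within each of the 4 libraries. Myh2, Myh8, Myh3 and Myh7 also overlapped each with the next. Myh8 was above Myh3 in all 4 knockout libraries, and Myh3 was above Myh7 in 2 of them.

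Inside the cluster, 2310065F04Rik (chr11:67112461-67120080, minus strand), annotated as a long intergenic noncoding RNA in GENCODE M21, lies between Myh3 and Myh2, with its nearer end 34.2 kb from the start of Myh3. It stood at 153, 159, 174 and 107 CPM in the controls and at 7.38, 8.20, 8.17 and 5.21 CPM in the knockouts. It fell by 4.35 on the log2 scale (SE 0.19, edgeR adjusted p = 1.6e-07), with no overlap between groups. In cluster order the log2 fold changes were 6.92 for Myh3, -4.35 for 2310065F04Rik, 0.21 for Myh2, 1.15 for Myh1, -2.34 for Myh4 and 6.72 for Myh8. The genes at both ends rose, and genes of either direction lay between them. The extraocular gene Myh13, beyond Myh8, was low and not called (-0.61, SE 0.45, edgeR adjusted p = 0.26).

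**Figure D4:**
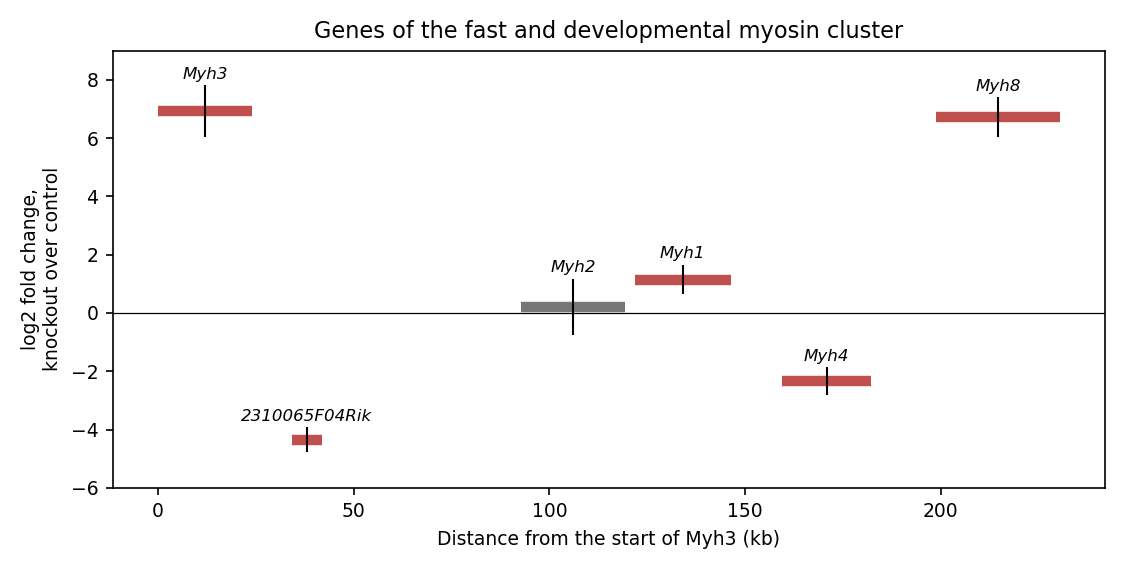
Log2 fold change, knockout over control, of the 6 genes of the chromosome 11 cluster against distance from the start of Myh3 in kb, each bar spanning the gene and each vertical line its 95% interval, red where called. Myh3 and Myh8 at the ends stand near 7, and 2310065F04Rik and Myh4 lie below 0.

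Of the 6 other class II myosins in the table, 2 rose and 1 fell, where 23.6% of all genes rose and 21.1% fell, with a median log2 fold change of -0.24 against 0.065 over all genes. These shares are near those of all genes. The nonmuscle chains Myh10 and Myh14 rose, by 1.99 (SE 0.17, edgeR adjusted p = 6.7e-06) and 0.67 (SE 0.074, adjusted p = 3.5e-05) on the log2 scale. The smooth muscle chain Myh11 fell by 1.02 on the log2 scale (SE 0.15, edgeR adjusted p = 0.00019), and in the smooth muscle marker list, which holds Myh11, 4 of 5 genes fell. The α-cardiac Myh6 was not called (-0.91, SE 0.39, edgeR adjusted p = 0.066), and the heart muscle markers in the table, Myh6 and Tnni3, summed to at most 5.63 CPM in any library.

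Partners of the fast isoforms moved with Myh4. All 11 genes of the fast fibre list fell, with a median log2 fold change of -1.66, where 21.1% of all genes fell. Largest were the falls of Mylk2, the kinase of the fast regulatory light chain (log2 fold change -2.52, SE 0.18), Actn3, the α-actinin of fast fibres (-2.33, SE 0.15), and Pvalb, the calcium buffer parvalbumin (-2.30, SE 0.26), with edgeR adjusted p of 2.1e-06, 1.3e-06 and 4.6e-05. Of 11 genes of myosin folding and the thick filament, 6 fell and 1 rose, where 21.1% of all genes fell and 23.6% rose. Mybpc2, the fast myosin binding protein C, fell by 2.33 on the log2 scale (SE 0.21, edgeR adjusted p = 8.5e-06), and Mybph fell by 1.60 (SE 0.36, adjusted p = 0.0034). Myom3, an M-band protein, rose by 3.07 (SE 0.35, edgeR adjusted p = 4.8e-05).

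Most partners of the slow isoform rose. Of 10 genes of the slow fibre list, 9 rose and 0 fell, with a median of 2.78, where 23.6% of all genes rose. DESeq2 also called 9 higher and 0 lower, and 0 were lower in edgeR at an unadjusted p under 0.05. Tnni1, Tnnc1 and Tnnt1, the slow troponin subunits, rose by 5.06 (SE 0.41), 4.67 (SE 0.60) and 3.68 (SE 0.48) on the log2 scale, with edgeR adjusted p of 4.7e-06, 1.0e-04 and 1.1e-04. These 3 were named for the largest changes of the list, and none overlapped between the groups, where 53.4% of all genes did not overlap. Knockout replicate 2, at control level for Myh7, still held 76.2 CPM of Tnni1 against at most 3.29 CPM in any control. The same library was low for the slow light chains Myl2, with 6.37 CPM against 37.1, 49.4 and 115 CPM in the other knockouts, and Myl3, with 3.16 CPM against 20.01, 30.2 and 60.9 CPM. Knockout replicate 2 also lay within the controls for Tpm3, with 37.8 CPM against 62.7, 91.5 and 116 CPM in the other knockouts. Myl2 and Tpm3, both called higher, overlapped between the groups. Myl3 was not called (0.21, SE 0.79, edgeR adjusted p = 0.83).

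**Figure D5:**
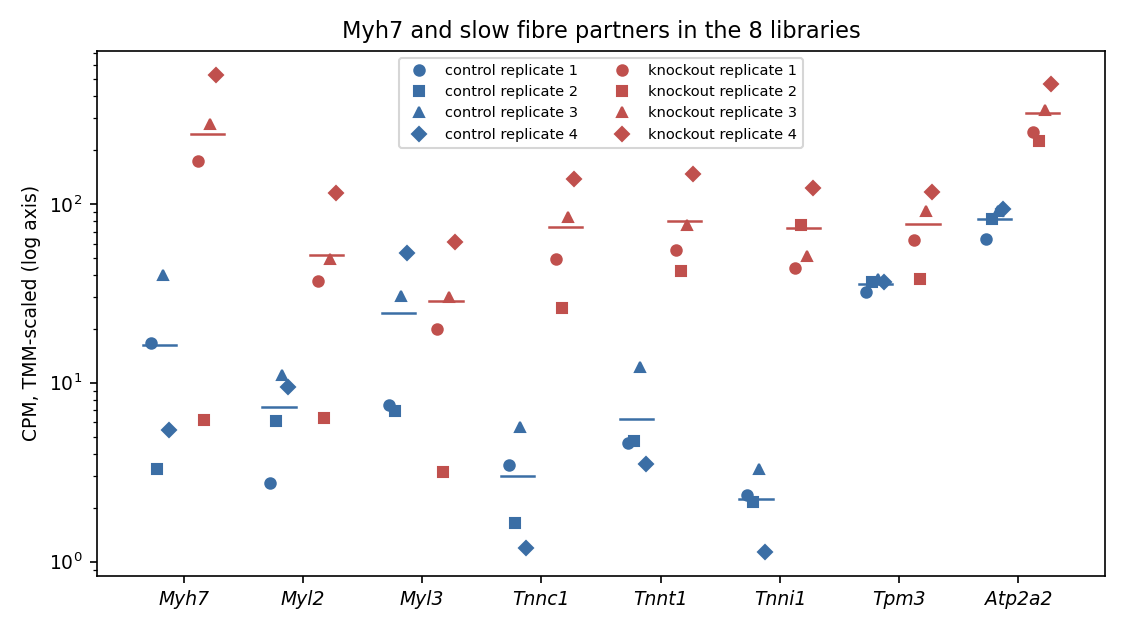
CPM of Myh7 and 7 slow fibre partners in each library (log axis), controls in blue and knockouts in red, with symbols for the replicates and a bar at the group mean. Knockout replicate 2 (red square) lies among the controls for Myh7, Myl2 and Tpm3 and below every control for Myl3. It lies above every control for Atp2a2 and the slow troponins Tnnc1, Tnnt1 and Tnni1.

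Most measured genes that accompany developmental myosins rose as well. Of the 11 genes of the developmental and regeneration list, 9 were measured, and Mymk and Mymx were not among the genes of the deposited table. Of the 9 measured genes, 7 rose and 1 fell, with a median of 3.34, where 23.6% of all genes rose and 21.1% fell. The fetal acetylcholine receptor subunit Chrng went from 1, 5, 3 and 0 counts to 545, 692, 582 and 1098 counts (log2 fold change 7.55, SE 0.43, edgeR adjusted p = 5.9e-07). Myl4, the embryonic light chain, rose by 5.73 (SE 0.35) and Tnnt2, the cardiac troponin T of developing muscle, by 5.45 (SE 0.42), with edgeR adjusted p of 8.6e-07 and 3.2e-06. Actc1, the cardiac actin, fell by 1.47 on the log2 scale (SE 0.30, edgeR adjusted p = 0.0018), and Myod1 was not called (0.14, SE 0.27, edgeR adjusted p = 0.68). The markers of satellite cells, the stem cells of muscle, did not move in 1 direction, since 2 of 5 rose and 2 fell, and their summed level was 41.0 to 51.2 CPM in controls and 44.5 to 59.9 CPM in knockouts. The 2 that rose, Myf5 and Cdh15, are also counted among the 7 risen genes of the developmental and regeneration list. Pax7, the defining marker of satellite cells, was not called (0.28, SE 0.21, edgeR adjusted p = 0.28).

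Of 21 listed regulators of myosin heavy chain genes, 2 rose and 13 fell, with a median of -0.47, where 23.6% of all genes rose and 21.1% fell. Sox6, a repressor of slow fibre genes, fell by 1.35 on the log2 scale (SE 0.095, edgeR adjusted p = 1.9e-06). Eya1, a transcriptional coactivator of fast fibre genes, fell by 1.19 on the log2 scale (SE 0.12, edgeR adjusted p = 1.5e-05). Both were lower in all 4 knockouts than in any control. Sox6 and Eya1 were named for the size of their change, not for their role. The fallen regulators also held Nfatc1 (-0.68, SE 0.078, edgeR adjusted p = 4.8e-05) and Ppargc1a (-0.54, SE 0.14, edgeR adjusted p = 0.0090). Whether the fallen regulators favour 1 fibre type was not tested.

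Markers of muscle fibres and of other cell types were also counted, where 23.6% of all genes rose and 21.1% fell. Of the muscle fibre markers 7 of 8 fell and 1 rose, with a summed level of 114179 to 140408 CPM in controls and 48930 to 62321 CPM in knockouts. This list shares genes with the fast fibre list. Macrophage markers summed to 55.0 to 135 CPM in controls and 116 to 206 CPM in knockouts, with 1 of 6 called by edgeR, Cd68 (log2 fold change 2.62), and 3 of 6 by DESeq2. The edgeR count does not exceed the share of all genes that rose. Of the endothelial markers 4 of 5 fell, of the fibroblast markers 3 of 5 fell, and of the 6 adipocyte and 5 Schwann cell markers 0 were called by edgeR or DESeq2. At an unadjusted p under 0.05 edgeR had 0 adipocyte markers and 1 Schwann cell marker. The adipocyte sums ranged from 248 to 1459 CPM in controls and from 685 to 2481 CPM in knockouts. The part of these differences in the levels of the myosin heavy chains was not tested.

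For each member, the 2 other genes with the most similar pattern over the 8 libraries were found among 11041 genes, by the root mean square difference of centred log2 CPM. They were Actn3 (0.0907) and Mybpc2 (0.104) for Myh4, Actn2 (0.178) and Bcl2l1 (0.182) for Myh1, and Ankrd2 (0.279) and Smtnl1 (0.340) for Myh2. For the developmental isoforms they were Trib3 (0.518) and Slc7a5 (0.560) for Myh3, and Sln (0.416) and Slc7a5 (0.550) for Myh8. Slc7a5, an amino acid transporter subunit, was near both, and Sln encodes sarcolipin, a regulator of the calcium pump. For Myh7b they were Atcay (0.313) and Sh3tc2 (0.314). Farthest from any other gene was Myh7, with Myl2 (1.40) and Tnnc1 (1.41). This likeness is a description of 8 libraries that include the difference between the groups.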

How the data were processed

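The deposited table held raw counts, FPKM values and the authors' own comparison for 14012 genes. Per the labels and methods, the authors made strand-specific libraries from polyadenylated RNA, demultiplexed with bcl2fastq 2.20.0.422, trimmed with cutadapt, mapped read pairs to GRCm38 with STAR 2.5.4b and counted pairs on exons with Rsubread. They left out duplicate, chimeric, multimapping and poorly mapped reads and genes with few reads. Each gene kept in the table had at least 51 reads over all libraries. The gene annotation release and the use of strand in counting are not given in the sources used here. The deposited FPKM values, which the authors derived from these counts and the exon width, served only as an alternative for shares and ratios. Fold changes and p-values that the authors obtained with DESeq2 1.32.0 were not used.

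All genes were tested with edgeR 4.0.16 in R 4.3.3 (glmQLFit and glmQLFTest, TMM, group as the only term, Benjamini-Hochberg adjustment over all genes, adjusted p under 0.01). Log2 CPM used a prior count of 2. Single values and ratios were compared by exact two-sided permutation over the 70 assignments of 4 against 4. SDs are over 4 libraries. Replicates of a group were separate mice and their counts differed by more than sampling noise, with a chi-square per degree of freedom of at least 17.2. Sequences came from RefSeq (GRCm38.p6) and GENCODE M21 and were compared with Python and Biopython. Alternatives were other scalings (RLE, upper quartile, library totals alone, TMM without the 20 most abundant genes, and the summed members), a filter on low counts, DESeq2 1.42.0, the replicate number as a block, thinning to the smallest library (seed 11), each library left out and an adjusted p under 0.05. On simulated data (13471 genes, 200 changed), the edgeR test recovered 87% of genes changed by 2 and 66% of those changed by 1 on the log2 scale, and called 2 unchanged genes. The simulation drew both groups from control proportions, with as many genes raised as lowered. It does not cover the many changed genes and the shift in composition between the real groups.

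The members and lists were chosen with earlier results of these data known. Genes named are all 7 members, Grpel1, up to 3 called genes per gene list with the largest absolute log2 fold change, genes inside the chromosome 11 cluster or overlapping a member, and for each member the 2 genes of mean count at least 50 with the nearest pattern. A gene that this rule names is not reported here. Myl2, Myl3 and Tpm3 in the figure and text, the other partners drawn there, Myh6, Myh13, Tnni3, Actc1, Myod1, Myf5, Cdh15, Pax7, Nfatc1, Ppargc1a and Cd68 were chosen after their values were seen.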

Additional observations from a re-analysis of the deposited data

Results flagged for a closer look

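Among 38 groups of 4 libraries, 3 held a library far from the other 3, by the gap to its nearest neighbour as a part of the range. Chance flags about 1 in 20 groups. Myh2 stood at 866 CPM in knockout replicate 1, below the 1174 to 1196 CPM of the other knockouts. The ratio of Myh1 to Myh2 per kb was 22.5 in control replicate 1, against 6.25 to 7.78 in the other controls, where this library also had the lowest Myh2 level. The ratio of Myh2 to Myh7 per kb was 192 in knockout replicate 2, against 2.21 to 4.998 in the other knockouts, and this is the knockout library with Myh7 at 6.18 CPM.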

How the results depend on the processing

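Across 17 alternative analyses, Myh1, Myh3, Myh4 and Myh8 kept their direction and their call in all 17. Scaling libraries to the summed counts of the members, which sets their total equal by construction, raised the members called from 4 to 7 and the genes called to 12434, with log2 fold changes of 1.68 for Myh2, 1.98 for Myh7b and 5.65 for Myh7. Myh7 was also called with library totals alone (4.63) and with DESeq2 (3.88). With a single library left out, Myh7 ranged from 3.25 to 4.90, Myh2 from -0.11 to 0.58, negative without control replicate 1, and the log2 ratio of Myh8 to Myh3 from -0.28 to 0.033, positive without knockout replicate 4. Except for the construction named above, the cause of these moves was not tested. With the replicate number as a block, Myh7 passed the threshold (log2 fold change 3.56, edgeR adjusted p = 0.0050), 6123 genes and 5 members were called, and no other member's call changed. Libraries with the same number had correlations of deviations between 0.003 and 0.42, and 3 of the 4 control replicates correlated best with the knockout of their own number while control replicate 2 correlated best with knockout replicate 1. Since not every correlation was over 0.1, the numbers were not taken as pairs. Of the 119 log2 fold changes of members under these settings, 110 kept their direction and their side of the threshold. Depth limits the low members in the controls, where every library held fewer than 100 counts of Myh3, Myh7b and Myh8 and controls 2 and 4 held 50 and 86 counts of Myh7, and intervals cover the spread between 4 mice only. Reads lost to paralogs, the removal of duplicate read pairs and the unknown treatment of the controls are not covered by any alternative.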
